A study of Mus musculus with 9 samples.

Results

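Hba-a1, Hba-a2, Hbb-bs, Hbb-bt and Alas2 were followed in each hippocampal library, as the adult globin genes and the erythroid heme enzyme that mark red cell RNA in a tissue extract. The members were the rows of the gene count table that carry these gene names, and all 5 names were found, each once, among 54532 genes. Each of the 9 libraries came from 1 mouse, 5 in the Ant-134 group and 4 in the Scr group. All mice were N4 Ube3a m-/p+ animals, which lack a working maternal allele of Ube3a while the paternal allele is intact, and which model Angelman syndrome. They had been backcrossed over several generations to, and kept on, an inbred strain other than C57BL/6, to obtain susceptibility to sound-induced seizures. At P21 each received 0.5 nmol of oligonucleotide into a cerebral ventricle, either Ant-134, an antimiR against miR-134, or Scr, a scrambled control. Audiogenic seizures were induced at P22, P24 and P26, and the ipsilateral hippocampus was taken 24 h after the last. The 2 groups therefore shared genotype, surgery and the seizure stimulus and differed in the oligonucleotide. The study also reports milder audiogenic seizures with Ant-134, and a tendency for more of those mice to survive. Oligonucleotide, seizure severity and survival thus cannot be told apart in this comparison. The methods of the study describe saline perfusion before collection for its molecular work, and do not record the sex of these mice. The comparison asked whether the globin transcripts differed with Ant-134, and how evenly they were spread over the libraries.

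Hemoglobin is a tetramer of alpha and beta chains, each holding a heme group that binds oxygen. Adult mice make the alpha chain from Hba-a1 and Hba-a2, a pair of neighbouring genes, and the beta chain from Hbb-bs, the major, and Hbb-bt, the minor gene of the C57BL/6 haplotype. Alas2 encodes the erythroid form of 5-aminolevulinate synthase, the enzyme that starts heme synthesis in red cell precursors, while Alas1 serves the other tissues. Mature red cells have no nucleus, and the youngest of them, the reticulocytes, still carry globin and Alas2 mRNA. Low globin expression has also been described in neurons and glia. In a bulk extract, fewer cells of a type and less RNA per cell cannot be told apart.

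In GRCm38 with the GENCODE M21 annotation, Hba-a1 lies at chr11:32283511-32284465 on the plus strand and Hba-a2 at chr11:32296489-32297298 on the same strand, each with 3 exons in the gene model. Hbb-bs lies at chr7:103826534-103828096 and Hbb-bt at chr7:103812524-103813996, both on the minus strand and both with 3 exons. Alas2 lies on the X chromosome, at chrX:150547375-150570638 on the plus strand, with 11 exons. The members thus came from 3 chromosomes, and any pattern they share is not one of a single locus.

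The paired globin genes are nearly identical in what they encode, which bears on how their reads can be told apart. The coding sequences of Hba-a1 and Hba-a2 have 429 bases and differ at 1 of them, C381T, counted from the A of the start codon, with the Hba-a1 base given before the position and the Hba-a2 base after it. Those of Hbb-bs and Hbb-bt have 444 bases and likewise differ at 1, C417T, with the Hbb-bs base before the position. The 30 bases around each difference are shown because they hold the only coding base that separates each pair, in capitals.
Hba-a1 coding bases 366 to 395: gcatgcctctctggaCaaattccttgcctc
Hba-a2 coding bases 366 to 395: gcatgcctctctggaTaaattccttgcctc
Hbb-bs coding bases 402 to 431: ggtggctggagtggcCgctgccctggctca
Hbb-bt coding bases 402 to 431: ggtggctggagtggcTgctgccctggctca

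Outside the coding sequence the untranslated ends add further differences. Of all 150-base windows of the annotated transcript, the length of 1 read, 51.6% of those of Hba-a1 did not occur in the transcript of Hba-a2, and 34.3% of those of Hba-a2 did not occur in Hba-a1. The shares were 41.3% for Hbb-bs and 49.3% for Hbb-bt. The annotated 5′ end of Hba-a1 is the longer, with 196 untranslated bases against 35 in Hba-a2, which adds to its windows. Part of that longer end lies in a run of 247 bases that also occurs in the genome upstream of Hba-a2. Windows were compared between annotated transcripts only, and matches elsewhere in the genome were not assessed. The shares are therefore not shares of reads that the aligner could place. These sequences are those of the C57BL/6J reference, and the part of strain differences in the division of counts was not tested. The remaining windows occur in both genes of a pair, so the division of counts within a pair depends on how the read counter treated reads that fit both, and the sum of a pair is the firmer quantity.

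The 250 bases upstream of the RefSeq start sites are shown for 3 members, 1 from each chromosome, because the globin genes varied together across the libraries and Alas2 is the erythroid heme gene among the members. Capitals mark matches on either strand to 4 motifs. GATAA is the core that the erythroid factor Gata1 and its relatives recognise. CACCC is the box that Klf1 and its relatives recognise. CCAAT is a common promoter element. ATATAA is a TATA-like element found near many start sites. No matches to different motifs overlapped in these 3 windows. All sequences are from RefSeq on GRCm38.p6 and are written in the direction of transcription.
Hba-a2, plus strand, chr11:32296242-32296491: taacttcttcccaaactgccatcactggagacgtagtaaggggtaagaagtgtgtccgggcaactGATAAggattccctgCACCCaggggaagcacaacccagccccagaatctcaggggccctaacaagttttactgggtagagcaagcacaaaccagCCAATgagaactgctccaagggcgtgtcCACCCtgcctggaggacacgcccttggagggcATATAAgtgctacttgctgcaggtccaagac
Hbb-bs, minus strand, chr7:103827929-103828178: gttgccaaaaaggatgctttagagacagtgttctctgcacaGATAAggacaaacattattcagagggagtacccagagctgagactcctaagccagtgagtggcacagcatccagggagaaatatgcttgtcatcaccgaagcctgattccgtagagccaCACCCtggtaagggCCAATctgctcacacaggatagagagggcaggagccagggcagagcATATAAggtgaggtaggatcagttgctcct
Alas2, plus strand, chrX:150547167-150547416: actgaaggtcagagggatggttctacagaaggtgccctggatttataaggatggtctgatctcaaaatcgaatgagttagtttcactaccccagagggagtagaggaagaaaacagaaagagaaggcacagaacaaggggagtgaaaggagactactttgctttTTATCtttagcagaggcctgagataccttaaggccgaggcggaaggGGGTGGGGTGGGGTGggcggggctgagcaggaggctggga

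GATAA was present in 5 of 5 members, compared with 22.6% of the 32851 promoters of the same length. CACCC was present in 5 of 5, compared with 52%. CCAAT was found in the 4 globin genes and not in the Alas2 window, compared with 33.8% of all promoters, and ATATAA was likewise found in the 4 globin genes, compared with 9.1%. The windows of Hba-a1 and Hba-a2 share an identical run of 247 bases and count nearly as 1 sequence, whereas the longest identical run in the windows of Hbb-bs and Hbb-bt was 14 bases. A match is a run of letters and does not show that a factor binds there.

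The library totals ran from 28583298 to 41978113 counts, the smallest being Ant-134 replicate 3. At that depth 3 counts, the limit that a count of 0 allows, correspond to between 0.0715 and 0.105 CPM (counts scaled to a library total of 1000000), well below each member's level in each library. The mean log2 level of the Y-linked genes was below the average of the 9 libraries in 3, Ant-134 replicates 1 and 4 and Scr replicate 3. It was above that average in 6. The 3 were read as females and the 6 as males, and on this reading both groups held mice of both sexes. Across 19782 genes tested with edgeR's quasi-likelihood test, 827 passed an unadjusted p below 0.05, 294 of them higher and 533 lower with Ant-134, and 0 passed after Benjamini-Hochberg adjustment. After adjustment 16 passed with DESeq2 and 0 with limma. Ant-134 replicate 3 stood apart from the rest in the members, and the group comparisons of the members are given with and without it.

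Hbb-bs, the major adult beta-globin gene, was the most abundant member. In the Ant-134 group it measured 33.9, 56.2, 216, 39 and 39.9 CPM in replicates 1 to 5, from 1112, 2162, 6055, 1190 and 1207 counts. In the Scr group it measured 21.8, 42.2, 43.5 and 34.9 CPM in replicates 1 to 4, from 694, 1785, 1483 and 1192 counts. Ant-134 replicate 3 was far above the other 8 libraries, Scr replicate 1 was the lowest, and the remaining values of the groups overlapped. By the deposited FPKM, which divides by gene length, Hbb-bs held rank 89 of all genes in Ant-134 replicate 3 and ranks between 575 and 1800 in the other libraries.

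Hba-a1, the more heavily counted alpha-globin gene, had a lower level than Hbb-bs in each library, in CPM and in FPKM. Its values were 24.9, 42.1, 145, 24.9 and 28 CPM with Ant-134 and 15, 29.6, 34.6 and 22.7 CPM with Scr. Again Ant-134 replicate 3 was the highest and Scr replicate 1 the lowest, and without that highest value the Ant-134 libraries, at 24.9 to 42.1 CPM, lay over the Scr range of 15 to 34.6 CPM. Hba-a1 held FPKM rank 166 in Ant-134 replicate 3 and rank 2849 in Scr replicate 1.

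Hbb-bt, the minor beta-globin gene, measured 4.39, 7.85, 26.2, 5.44 and 4.76 CPM with Ant-134 and 3.54, 5.2, 5.54 and 4.89 CPM with Scr. Its highest and lowest libraries were those of Hbb-bs. Hba-a2, the alpha-globin gene with fewer counts, measured 4.42, 7.2, 10.6, 4.39 and 4.63 CPM with Ant-134 and 2.01, 5.01, 5.63 and 4.13 CPM with Scr. Ant-134 replicate 3 was the highest here as well, but it exceeded the next library, Ant-134 replicate 2, by less than in the other globin genes.

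Alas2, the erythroid heme enzyme, was the least abundant member, with 46 to 169 counts a library. It measured 1.4, 2.29, 6.01, 2.65 and 1.75 CPM with Ant-134 and 1.66, 1.73, 2.43 and 1.55 CPM with Scr. Ant-134 replicate 3 was again the highest, and the lowest library was Ant-134 replicate 1 rather than Scr replicate 1. Alas2 is X-linked, and its range was 1.4 to 2.65 CPM in the 3 libraries with a Y-linked level below the average. In the 6 with a level above it the range was 1.55 to 6.01 CPM, so these overlapped.

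**Figure D1:**
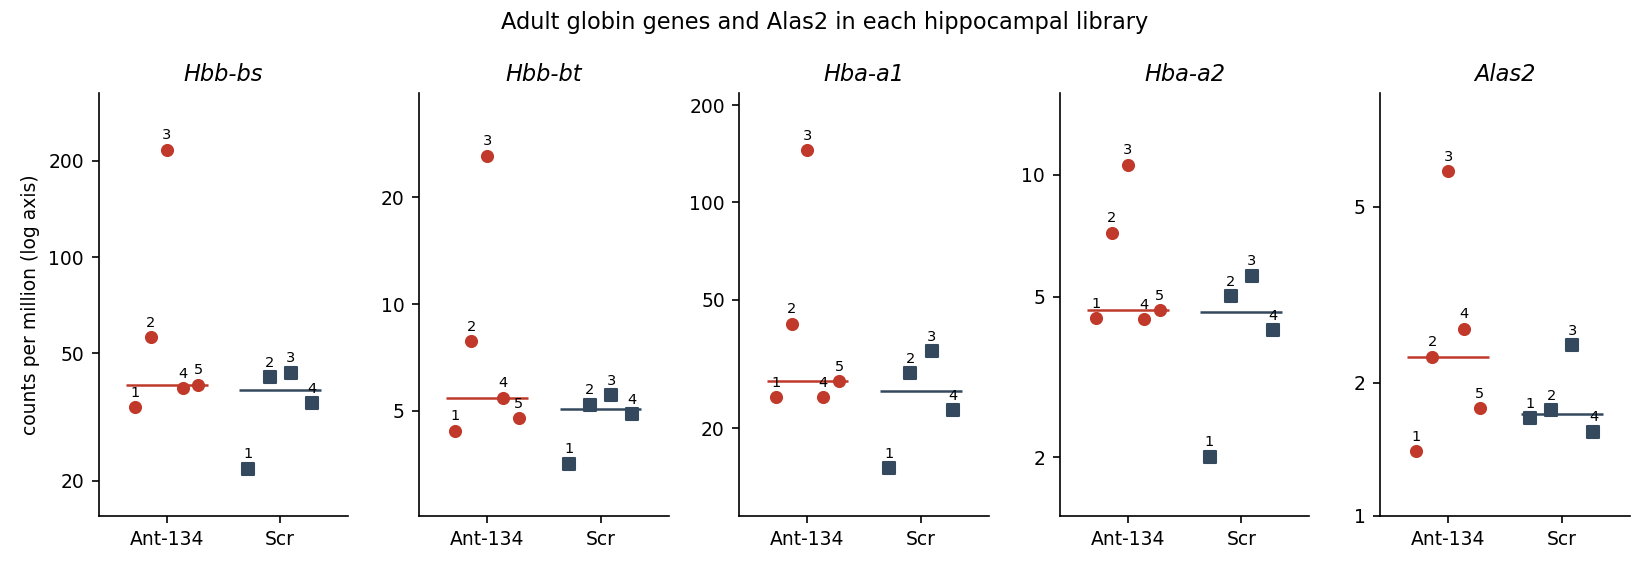
Level of each member in each library, in CPM on a log axis, with 5 Ant-134 libraries as red circles and 4 Scr libraries as dark squares. Numbers are replicate numbers and bars are group medians. Ant-134 replicate 3 is the highest library in all 5 panels, at 216 CPM for Hbb-bs and 6.01 CPM for Alas2, while the other libraries of the groups overlap.

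The 4 adult globin genes together gave 1351 to 11156 counts a library. The sum was 67.6, 113, 397, 73.7 and 77.3 CPM with Ant-134 and 42.3, 82, 89.3 and 66.6 CPM with Scr. As a share of all counts, Ant-134 replicate 3 reached 0.039% (Wilson 95% interval 0.0383% to 0.0398%), and the other 8 libraries lay between 0.00422% and 0.0114%. These intervals cover counting error only. The groups overlapped, and Ant-134 replicate 3 was 5.26 times the median of the other 8, among which the highest was 2.68 times the lowest. Per length, in FPKM, Hbb-bs stood above Hba-a1 in each library, at medians of 51.7 and 34.2 FPKM with Ant-134 and 49.6 and 31.8 FPKM with Scr. Hbb-bt and Hba-a2 had medians between 6.77 and 7.64 FPKM, and Alas2 of 0.943 and 0.697 FPKM.

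The ratio of Ant-134 replicate 3 to the median of the other 8 libraries was looked at for every gene after the values had been seen, and it is given as a description. It was 5.47 for Hba-a1, 5.46 for Hbb-bs and 5.2 for Hbb-bt, and these held ranks 5, 6 and 7 among the 19782 genes tested. It was 3.46 for Alas2, at rank 17, and 2.34 for Hba-a2, at rank 88. In this library 5 of 5 members were above each of the other 8 libraries, as were 12% of all genes tested, and 5 of 5 were at least 2 times the median, as were 0.915% of all genes tested.

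The comparison of Ant-134 with Scr placed each member higher with Ant-134 on average, and none of the differences exceeded the spread between mice. Means were 76.9 CPM (SD 77.9, n = 5) and 35.6 CPM (SD 9.97, n = 4) for Hbb-bs, and 52.9 CPM (SD 51.8) and 25.5 CPM (SD 8.49) for Hba-a1. They were 9.73 CPM (SD 9.32) and 4.79 CPM (SD 0.877) for Hbb-bt, 6.25 CPM (SD 2.71) and 4.19 CPM (SD 1.58) for Hba-a2, and 2.82 CPM (SD 1.85) and 1.84 CPM (SD 0.401) for Alas2. In the Ant-134 group the SD of Hbb-bs was as large as its mean.

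By edgeR's quasi-likelihood test, Hbb-bs differed by a log2 fold change of 1.10 (SE 0.66), with an unadjusted p of 0.139 and a Benjamini-Hochberg adjusted p = 0.998. Hba-a1 differed by 1.05 (SE 0.66), Hbb-bt by 1.01 (SE 0.62), Hba-a2 by 0.57 (SE 0.37) and Alas2 by 0.60 (SE 0.40), with unadjusted p-values of 0.154, 0.143, 0.156 and 0.161 and the same adjusted p of 0.998. At an unadjusted p below 0.05 the test called 0 of 5 members, and 4.18% of all genes tested, 1.49% higher and 2.69% lower. After adjustment it called 0% of all genes. The CPM of the groups overlapped for 5 of 5 members, and did not overlap for 1.54% of all genes tested. DESeq2 called 0 of the 4 members to which it gave a p, beside 1027 of 37435 genes tested. With limma on log2(FPKM + 1), 0 of 5 members were called, beside 1083 of 23670 genes tested. In edgeR without robust estimation Hbb-bs passed (unadjusted p of 0.0485), beside 875 of 19782 genes tested. With the replicate number as a block, which did not pair the mice, Hba-a2 (unadjusted p of 0.00359) and Alas2 (unadjusted p of 0.0354) passed by edgeR, beside 808 of 19782 genes tested. The median log2 fold change of the members was 1.01, beside 0.00258 over all genes tested.

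Without Ant-134 replicate 3 the log2 fold changes were 0.25 for Hbb-bs (SE 0.26), 0.23 for Hba-a1 (SE 0.30), 0.23 for Hbb-bt (SE 0.19), 0.30 for Hba-a2 (SE 0.29) and 0.13 for Alas2 (SE 0.23). In edgeR's quasi-likelihood test these had unadjusted p-values of 0.379, 0.470, 0.252, 0.337 and 0.561, in the same order, and an adjusted p of 0.996. The difference in Hbb-bs, 1.10 with all libraries, thus rested for the most part on 1 mouse. In that reduced set the means of Hbb-bs were 42.2 CPM (SD 9.67, n = 4) and 35.6 CPM (SD 9.97, n = 4).

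**Figure D2:**
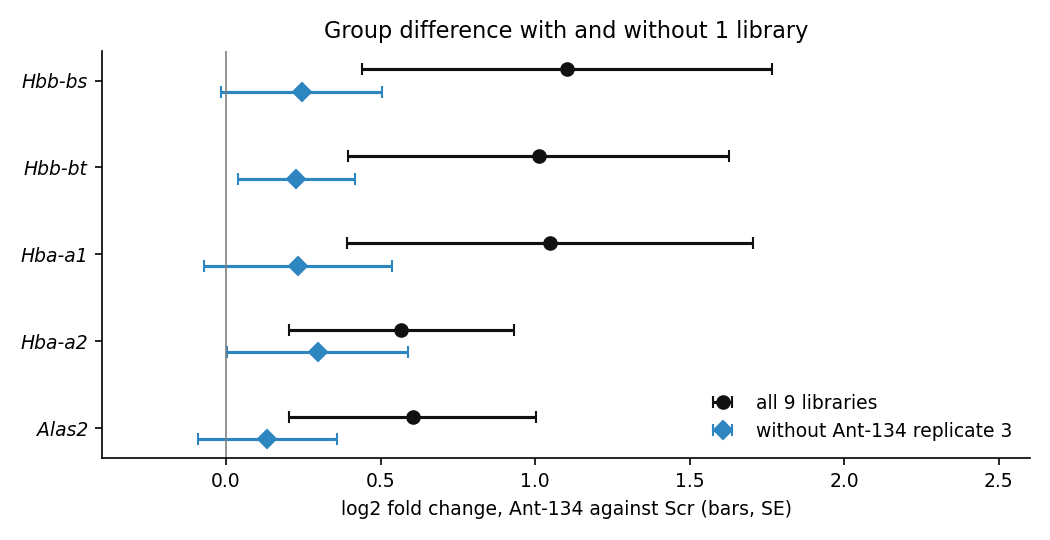
Log2 fold change of each member, Ant-134 against Scr, from edgeR, with bars of 1 SE. Black circles use all 9 libraries and blue diamonds leave out Ant-134 replicate 3. The value of Hbb-bs moves from 1.10 to 0.25 and that of Hba-a2 from 0.57 to 0.30.

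The summed adult globin level gave the same picture as a single value for each library. On the log2 CPM scale it averaged 6.8 (SD 1.06, n = 5) with Ant-134 and 6.07 (SD 0.481, n = 4) with Scr, a difference of 0.73, which a two-sided exact permutation test over 126 splits did not separate (p = 0.278, smallest possible p = 0.00794). Without Ant-134 replicate 3 the difference was 0.27 (exact permutation test, p = 0.457).

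With all libraries, the members were among the genes that varied most between mice of a group. The biological coefficient of variation that edgeR assigned was 63.8% for Hbb-bs, 63.3% for Hba-a1, 59.1% for Hbb-bt, 39.4% for Alas2 and 37% for Hba-a2, against a common value of 11.9% and a median of 11.4% over all genes. These lay between percentile 96.7, for Hba-a2, and percentile 99.5, for Hbb-bs and Hba-a1, of all genes tested. Much of this spread rested on 1 mouse. Without Ant-134 replicate 3, a set added after the values were seen, the coefficient was 25.4% for Hbb-bs, 29.5% for Hba-a1, 19.4% for Hbb-bt, 21.1% for Alas2 and 28.7% for Hba-a2, against a median of 11.2%. The percentiles were then between 74.6, for Hbb-bt, and 93.3, for Hba-a1.

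The division of the beta-globin counts between the rows of Hbb-bs and Hbb-bt was steady across libraries. As with the alpha genes, it depends on how reads that fit both rows were counted, and the part of that and of strain was not tested. Hbb-bt made up 11.5%, 12.3%, 10.9%, 12.2% and 10.7% of the beta-globin counts with Ant-134, and 14%, 11%, 11.3% and 12.3% with Scr. Ant-134 replicate 3, with about 5 times the globin level, thus had a share inside the range of the others. The difference of means was -0.647 percentage points (exact permutation test, p = 0.421), and without Ant-134 replicate 3 it was -0.486 points (exact permutation test, p = 0.571). The Wilson 95% interval of Scr replicate 1, which had the highest share, ran from 11.8% to 16.6% and overlapped those of all other libraries except Ant-134 replicate 3, at 10.1% to 11.6%.

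The alpha-globin counts were divided less evenly, and this share was computed after the values had been seen. Hba-a2 made up 15.1%, 14.6%, 6.83%, 15% and 14.2% of the alpha-globin counts with Ant-134, and 11.8%, 14.5%, 14% and 15.4% with Scr. Ant-134 replicate 3 was therefore the lowest, from 298 of 4364 counts, with a Wilson 95% interval of 6.12% to 7.62%. The next lowest library was Scr replicate 1, with 64 of 544 counts and an interval of 9.32% to 14.7%, and the remaining 7 libraries lay between 14% and 15.4%. The intervals of Ant-134 replicate 3 and Scr replicate 1 did not overlap. They cover counting error only, and the former library was picked as the lowest. The group means were 13.1% (SD 3.54, n = 5) and 13.9% (SD 1.54, n = 4), and their difference was -0.778 percentage points (exact permutation test, p = 0.873), or 0.798 points without Ant-134 replicate 3 (p = 0.457, exact permutation test). How reads that fit both alpha genes were counted bears on this share directly, and its part was not tested.

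Alpha and beta globin kept a narrow ratio. Counts per kilobase of the alpha genes over those of the beta genes were 0.741, 0.743, 0.611, 0.637 and 0.704 with Ant-134 and 0.646, 0.705, 0.791 and 0.651 with Scr. The lowest ratio was that of Ant-134 replicate 3, and the highest, that of Scr replicate 3. The difference of log2 means was -0.0226 (exact permutation test, p = 0.794), and without Ant-134 replicate 3 it was 0.0189 (exact permutation test, p = 0.857).

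Alas2 was not a constant share of the globin counts. Per 1000 adult globin counts there were 20.7, 20.2, 15.1, 36 and 22.7 Alas2 counts with Ant-134 and 39.2, 21, 27.3 and 23.3 with Scr. Ant-134 replicate 3, with the most globin, had the lowest value (exact Poisson 95% interval of the Alas2 count, per 1000, 13 to 17.6), and Scr replicate 1, with the least globin, had the highest (29.4 to 51.3). The globin count stands in the denominator, so this value and the globin count are not independent measures. In Ant-134 replicate 3 the summed globins were 5.26 times the median of the other 8 libraries, and Alas2 was 3.46 times. The means were 22.9 (SD 7.8, n = 5) and 27.7 (SD 8.1, n = 4) and did not differ beyond their spread (exact permutation test, p = 0.381). The difference was -4.77, and without Ant-134 replicate 3 it was -2.82 (exact permutation test, p = 0.486).

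**Figure D3:**
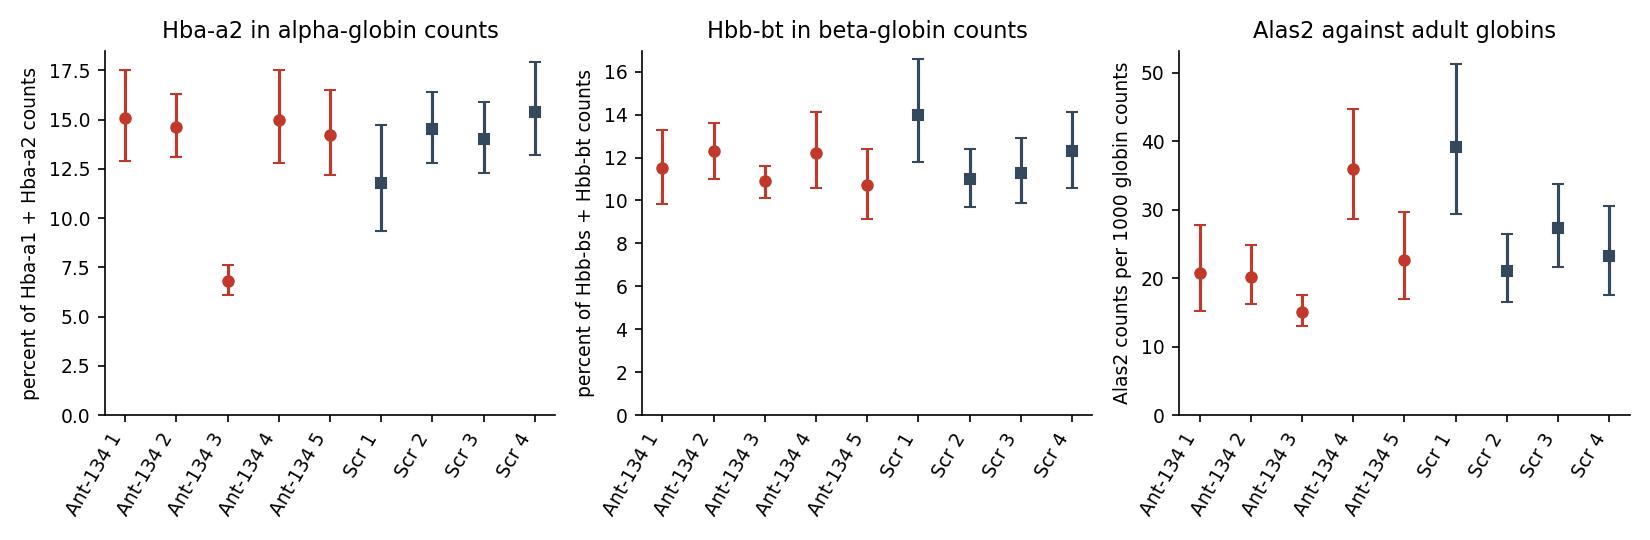
Make-up of the globin counts in each library, with Ant-134 as red circles and Scr as dark squares. The left panel gives Hba-a2 as a percent of alpha-globin counts, the middle panel Hbb-bt as a percent of beta-globin counts, both with Wilson 95% intervals, and the right panel Alas2 counts per 1000 adult globin counts with Poisson 95% intervals. Ant-134 replicate 3 is at 6.83% on the left, below the other libraries, and at 10.9% in the middle, within their range.

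The levels of the 4 globin genes rose and fell together over the libraries. Over the 9 libraries, log2 CPM of Hbb-bs and Hba-a1 had a Pearson r of 0.994 (exact permutation p = 1.1e-05, adjusted over 10 pairs 0.00011) and a Spearman rho of 0.95 (exact permutation p = 0.000353). Hba-a1 and Hba-a2 had an r of 0.912 (exact permutation p = 0.00113, adjusted 0.00283) and a rho of 1 (exact permutation p = 5.51e-06). Hbb-bs and Hbb-bt had an r of 0.99 (exact permutation p = 9.65e-05, adjusted 0.000482) and a rho of 0.917 (exact permutation p = 0.00131). The rank order was least alike for Hbb-bt with the alpha genes, at a rho of 0.817 with Hba-a1 and with Hba-a2 (exact permutation p = 0.0108 for each), where r was 0.98 and 0.849. The genes of a pair share reads, as described above, while the alpha and beta genes lie on different chromosomes.

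Leaving out the 2 libraries farthest from the median of the x axis, Ant-134 replicate 3 and Scr replicate 1, gave an r of 0.948 for Hba-a1 and Hbb-bs (exact permutation p = 0.000794). The same step gave 0.988 for Hba-a1 and Hba-a2 (exact permutation p = 0.000198) and 0.937 for Hbb-bs and Hbb-bt (exact permutation p = 0.00694). The relation among the globin genes did not rest on those libraries.

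Alas2 followed the globins in the high library more than among the rest. Its r with Hbb-bs was 0.901 (exact permutation p = 0.00928, adjusted 0.0116) and its rho 0.75 (exact permutation p = 0.0255). Without the same 2 libraries the r fell to 0.597 (exact permutation p = 0.145, adjusted 0.181), so this relation rests on them. With Hba-a2 the r of Alas2 was 0.722 (exact permutation p = 0.0514) and the rho 0.617 (exact permutation p = 0.0857). In all, 9 of 10 pairs had an adjusted p below 0.05 by r and 8 of 10 by rho, and 6 of 10, the pairs among the globin genes, without the 2 libraries farthest on the x axis. Those were Ant-134 replicate 3 and Scr replicate 1 for 9 pairs, and Ant-134 replicates 2 and 3 for Hbb-bt with Alas2, whose r was 0.611 without them. As deviations from the group means, 10 of 10 did.

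**Figure D4:**
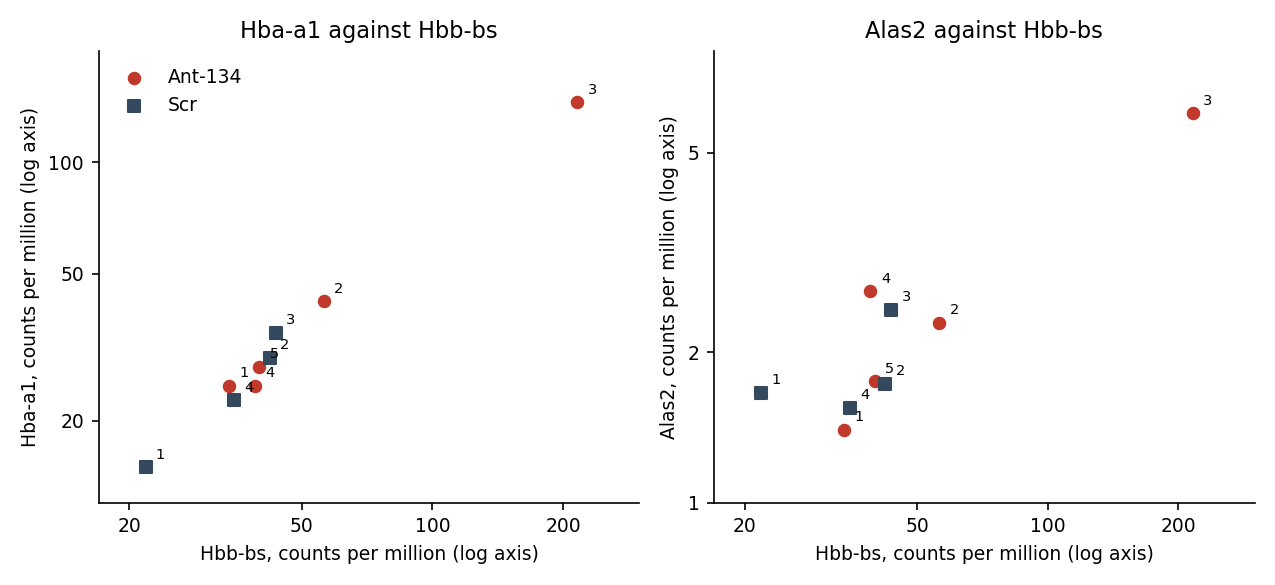
Hba-a1, left, and Alas2, right, against Hbb-bs in the 9 libraries, in CPM on log axes, with replicate numbers beside the points. Hba-a1 rises with Hbb-bs along the whole range (r = 0.994), whereas Alas2 is spread among the 8 lower libraries and high in Ant-134 replicate 3 (r = 0.901 with it, 0.597 without the 2 farthest libraries).

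The other members of the globin family were not raised to a like degree in Ant-134 replicate 3. Of 14 further globin names, 12 had a row in the table, and 5 of these passed the filter on low counts. The embryonic gene Hba-x and the silent or embryonic beta-like genes Hbb-bh0, Hbb-bh2 and Hbb-bh3 had 0 counts in all libraries, the embryonic Hbb-bh1 had 1 count in all and Hbb-y 6, with 0 of these in Ant-134 replicate 3. The theta globins Hbq1a and Hbq1b had 6 to 17 and 12 to 25 counts a library, and in Ant-134 replicate 3 they measured 0.534 and 0.712 CPM, against up to 0.499 and 0.733 CPM elsewhere. Cygb, cytoglobin, a globin of fibroblasts and some neurons, measured 63.8 CPM in that library and 62.4 to 77.9 CPM in the others. Ngb, neuroglobin, the globin of neurons, measured 1.21 CPM there and 2.19 to 7.51 CPM elsewhere. Adgb, androglobin, measured 0.498 CPM there and 0.381 to 0.914 CPM elsewhere, and Mb, myoglobin, had 3 to 28 counts a library and did not pass the filter. At an unadjusted p below 0.05, 0 of 5 were called, beside 4.18% of all genes.

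Heme synthesis genes other than Alas2 were compared next. Of 15 genes of that list reported here, 15 were tested, 0 passed an unadjusted p below 0.05 by edgeR in either direction, beside 4.18% of all genes, and their median log2 fold change was 0.000619. Alas1, the housekeeping counterpart of Alas2, measured 64.5 CPM in Ant-134 replicate 3 and 57 to 61.9 CPM in the others. Cpox and Fech, enzymes of the later steps, measured 50 and 56.7 CPM in that library, within the ranges of the others. In that library Alas2, by comparison, was 3.46 times the median of the others.

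Genes that handle free hemoglobin and heme gave 0 calls among 12 tested, beside 4.18% of all genes, with a median log2 fold change of 0.014. Fth1, the ferritin heavy chain, Lrp1, a receptor for heme bound to hemopexin, and Slc48a1, a heme transporter, were the most abundant, at 1420, 526 and 170 CPM in Ant-134 replicate 3. Their ranges in the other 8 libraries were 1250 to 1490, 503 to 574 and 139 to 161 CPM. Hmox1, heme oxygenase, the enzyme that opens heme, was added after the values were seen, and measured 7.44 CPM there against 7.26 to 10 CPM in the others.

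Most other transcripts of the red cell list were scarce in each library. Of 15 red cell genes of the list reported here, 9 had at most 6 counts in each library, and 6 were tested. Slc4a1, the band 3 anion exchanger of the red cell membrane, was lower with Ant-134 at an unadjusted p of 0.0232 (edgeR log2 fold change -0.92, SE 0.36, adjusted p = 0.998), at a mean of 0.235 CPM against 0.439 CPM and with 4 to 25 counts a library. The call was lost without Ant-134 replicate 5 or Scr replicate 2, where the unadjusted p reached 0.0984. In Ant-134 replicate 3 Slc4a1 had 10 counts. Summed after the values were seen, Slc4a1, Epb42, Rhag, Hemgn and Kel gave 16 counts in Ant-134 replicate 3 and 6 to 37 in the other libraries. The more abundant genes of the list, Tmcc2, Bpgm and Tspan33, are also transcribed in brain, and measured 248, 63.3 and 32.9 CPM in that library, against 222 to 258, 59.6 to 61.9 and 33.2 to 42.4 CPM in the others.

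Among erythroid regulators, 0 of 7 tested genes were called, beside 4.18% of all genes, so for so few genes the count is near the background. The defining factors Gata1 and Klf1, added after the values were seen, had at most 1 and at most 8 counts a library. The abundant members of the list, Bcl11a, Tfrc and Zfpm1, have roles in neurons and other cells too, and their sum with the rest of the list was 322 CPM in Ant-134 replicate 3, the highest of the 9 libraries, against 261 to 310 CPM. Of the other factors of the list, also named after the values were seen, Gfi1b had at most 3 counts and Nfe2 6 to 22 counts a library, whereas Tal1 had 99 to 187, Epor, the erythropoietin receptor gene, 93 to 174 and Lmo2 460 to 757.

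The summed markers of the other blood cells lay within or below the range of the other libraries in the library with the most globin. The neutrophil list of 14 genes, led by S100a8, S100a9 and Mmp9, summed to 14.3 CPM in Ant-134 replicate 3 and 13.8 to 41.9 CPM in the others, so the library with most globin was the second lowest here. The blood monocyte list of 8 genes, led by Ccr2, F13a1 and Plac8, summed to 18.3 CPM there, the lowest of all, against 32.4 to 56 CPM. Platelet genes, led by Itga2b, Gp5 and Gp1ba, summed to 9.22 CPM there, the highest of the 5 Ant-134 libraries and the third highest of all, and 7.3 to 12.1 CPM elsewhere. Lymphocyte genes, led by Ighm, Lck and Trbc2, summed to 15.9 CPM there, the sixth highest, and 13.2 to 22.8 CPM elsewhere. Many platelet and lymphocyte genes had few counts, so these sums rest on few genes. In Ant-134 replicate 3 Ighm measured 11 CPM, and Cd3d, Cd3g, Cd8a, Ppbp, Gp1bb and Gp6, named after the values were seen, had 0 counts. Whether the genes that lead these lists were transcribed in blood cells here was not tested. For S100a8 plus S100a9, the summed globin level was 53.4 times as high in Ant-134 replicate 3 and between 2.5 and 12 times as high in the other 8 libraries, a ratio added after the values were seen. The globin level in its numerator was already known to be the highest in that library, so the ratio is no separate evidence. It uses 2 of the 14 genes of the neutrophil list.

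Between the groups, 0 genes of these lists were called higher, beside 1.49% of all genes. Called lower were 1 of 6 platelet, 1 of 7 blood monocyte, 0 of 8 neutrophil and 0 of 8 lymphocyte genes tested, beside 2.69% of all genes. Treml1, a platelet receptor gene, was lower with Ant-134 (0.251 against 0.516 CPM, edgeR log2 fold change -1, SE 0.34, unadjusted p of 0.0104), as was Chil3 of the monocyte list (2.24 against 3.35 CPM, log2 fold change -0.59, SE 0.24, unadjusted p of 0.0304). The call of Treml1 held without each library in turn, and that of Chil3 was lost without Ant-134 replicate 2, 3 or 4 or Scr replicate 2 or 3. Neither passed the adjustment over all genes, with an adjusted p of 0.998. The direction of these 2 calls was opposite to that of the members' averages. The median log2 fold changes were -0.281 for platelet, 0.327 for neutrophil, -0.298 for lymphocyte and -0.102 for blood monocyte genes.

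Vessels and the borders of the brain were examined because blood is held there. The endothelial list of 16 genes, led by Slc2a1, Slco1a4 and Cldn5, summed to 445 CPM in Ant-134 replicate 3 and 375 to 523 CPM elsewhere. Of its 16 genes, all tested, 0 were called higher and 2 lower with Ant-134, beside 1.49% and 2.69% of all genes. These were Itm2a (edgeR log2 fold change -0.23, SE 0.07, unadjusted p of 0.00555) and Tie1 (-0.34, SE 0.13, unadjusted p of 0.0208). The log2 fold changes of all 16 were below 0, with a median of -0.138, beside 0.00258 over all genes tested. The call of Tie1 was lost without Ant-134 replicate 2 or Scr replicate 2. The meninges list of 12 genes summed to 133 CPM in Ant-134 replicate 3, the lowest of all, against 156 to 273 CPM, and 8 of its 12 genes were called lower with Ant-134 and 0 higher, beside 2.69% of all genes called lower. Col1a1 and Col1a2, which encode the chains of type I collagen, had log2 fold changes of -0.42 (SE 0.18) and -0.43 (SE 0.16) by edgeR, with unadjusted p-values of 0.0409 and 0.0282. For Lum, Ogn and Fmod, proteoglycan genes of connective tissue, they were -0.48, -0.54 and -0.76, and for the growth factor gene Igf2 -0.87. For the transporter genes Slc6a13 and Slc22a6 they were -0.50 and -0.84. Dcn, decorin, the most abundant gene of the list, was not called (-0.37, SE 0.21, unadjusted p of 0.119), and measured 25.5 CPM in Ant-134 replicate 3 against 42.3 to 63.1 CPM elsewhere. The log2 fold changes of all 12 meninges genes were below 0, with a median of -0.484. No gene of the list passed the adjustment over all genes. Of the 9 fits that left out 1 library each, Lum and Igf2 were called in 9, Slc6a13 in 7, Col1a2 and Slc22a6 in 5, Fmod in 4, Ogn in 3 and Col1a1 in 2. Without Ant-134 replicate 3 the calls of Col1a1, Slc22a6, Ogn and Fmod were lost, and without Scr replicate 2 or Scr replicate 4 those of Col1a1, Col1a2, Slc6a13, Slc22a6, Ogn and Fmod. Each other library left out lost 1 to 4 of the calls, except Ant-134 replicate 2, which lost 0.

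The choroid plexus list, led by Ttr, the transthyretin gene, Kl and Tmem72, varied widely, from 73.6 to 2.69e+03 CPM, and stood at 705 CPM in Ant-134 replicate 3, the fourth highest. The part of meningeal or choroid tissue in the globin levels was not tested. Of the 13 markers of the labelled tissue, 1 was called higher with Ant-134 and 0 lower, beside 1.49% of all genes called higher. It was Dsp, desmoplakin, at 47.2 against 41.7 CPM (edgeR log2 fold change 0.18, SE 0.07, unadjusted p of 0.023, adjusted p = 0.998), and the call was lost without Ant-134 replicate 3, Scr replicate 1 or Scr replicate 4. Ant-134 replicate 3 was the highest library for 4 of the 13, as it was for 12% of all genes tested. These were Dsp, at 54.8 CPM against 39.4 to 46.8 CPM, and Slc17a7, the transporter of excitatory neurons, at 1840 CPM against 1660 to 1760 CPM. The others, named after the values were seen, were the neuronal genes Rbfox3, at 280 CPM against 242 to 256 CPM, and Neurod6, at 216 CPM against 155 to 214 CPM. Their part in the globin levels was not tested. Mbp, of myelin, and Gfap, of astrocytes, measured 4950 and 1100 CPM there, within their ranges of 3480 to 5330 and 982 to 1430 CPM elsewhere.

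**Figure D5:**
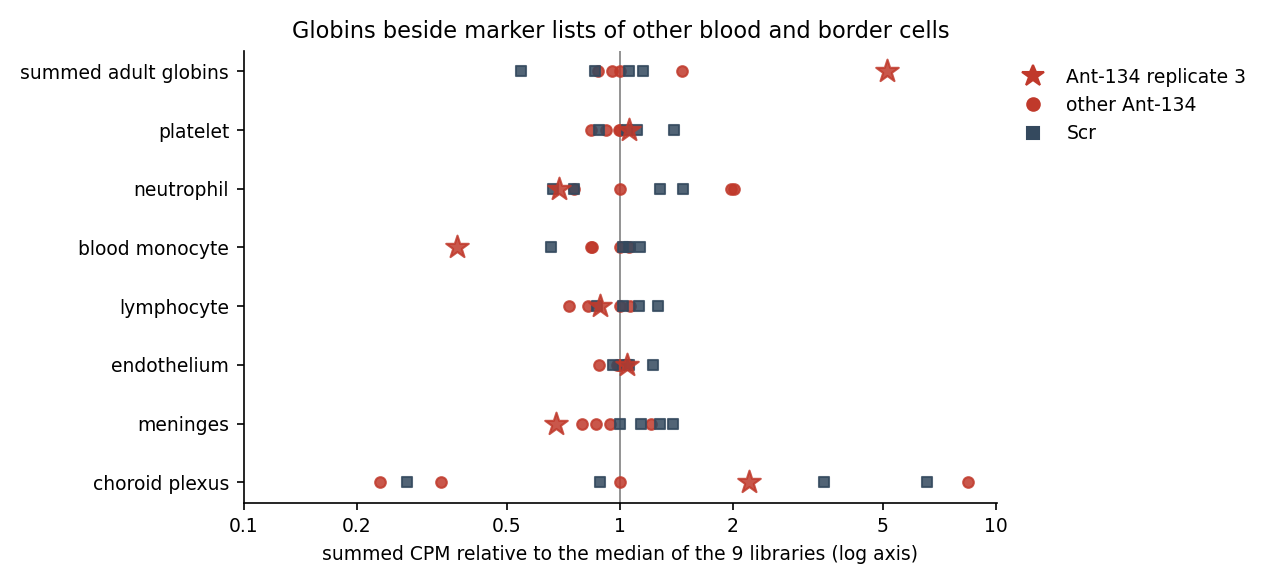
Summed CPM of the adult globins and of 7 marker lists in each library, relative to the median of the 9 libraries, on a log axis. The star is Ant-134 replicate 3, red circles are the other Ant-134 libraries and dark squares are Scr. In that library the adult globins are far to the right, at 397 CPM, while the blood monocyte list, at 18.3 CPM, and the meninges list, at 133 CPM, are its lowest of the 9.

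The genes whose pattern was most like the summed globins were sought among 16022 genes with a mean of at least 1 CPM, by Pearson r of log2 CPM over the 9 libraries and with no test. The 10 with the highest r, outside the globins, were Sptssb (0.945), Rab37 (0.935), Mb21d2 (0.925), Tnnt1 (0.923), Kcnmb4 (0.922), Ggt7 (0.915), Gm37570 (0.91), Dirc2 (0.907), Rnf39 (0.905) and Siah1a (0.904). Alas2 came next, at rank 11 with an r of 0.897. The values of a library share its scaling. Without Ant-134 replicate 3 the r of 9 of these 10 genes fell, to between 0.648 and 0.843, and that of Rnf39 was 0.93. Rab37, a small GTPase gene, measured 5.3 CPM in Ant-134 replicate 3 and 0.47 to 1.5 CPM elsewhere, and Tnnt1, slow skeletal troponin T, measured 2.81 and 0.564 to 1.35 CPM. Sptssb, a subunit gene of serine palmitoyltransferase, measured 2.85 CPM there and 0.784 to 1.33 CPM elsewhere. Ggt7, at 146 CPM there and 134 to 142 CPM elsewhere, differed by little in size despite its high r. Without Ant-134 replicate 3, only 1 of these 10 remained among the 10 most alike, and without Scr replicate 1, 0 did. In the 8 other libraries the r with the sum was 0.991 for Hba-a1, 0.996 for Hbb-bs, 0.986 for Hba-a2 and 0.936 for Hbb-bt, which are part of it, and 0.512 for Alas2.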

How the data were processed

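Counts per gene were deposited by the authors, who selected poly-A mRNA, sequenced read pairs, converted base calls with CASAVA 1.8, aligned with HISAT2 2.0.5 to mm10 (GRCm38) and counted with featureCounts 1.5.0-p3 per the labels and the study's methods. Strand setting and the treatment of reads that fit several genes are not given in the sources used here. The FPKM values, also computed by the authors, equal the CPM of the library total per gene length, times a constant per library. The mice were of another strain than the C57BL/6J reference.

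Here, counts were scaled by TMM and tested with edgeR 4.0.16 (filterByExpr, minimum count 10, robust quasi-likelihood test, Benjamini-Hochberg over 19782 genes), in R 4.3.3, checked on simulated data. CPM use TMM-scaled totals. DESeq2 1.42.0 and limma 3.58.1 were alternatives. Single values per library were compared by two-sided exact permutation tests. Wilson intervals (scipy 1.17.1) and the limit of 3 counts cover counting error only. Replicates were separate mice, and no 2 libraries of a group agreed within sampling noise. The members, gene lists and tests were chosen with earlier results of these data known. Genes named were the members, counted rows of other globins, the 3 most abundant and the called genes (unadjusted p below 0.05) of each list, and the 10 most alike; exceptions are stated. Motifs were searched in the 250 bases upstream of each start. Alternatives covered scaling, filters, tool, unit, sex, replicate numbers and each library left out. The share of Hba-a2, the ratio for Ant-134 replicate 3, the ratio to S100a8 plus S100a9, the red cell sum and the spread without Ant-134 replicate 3 were added after seeing the data. Some genes of the heme synthesis and red cell lists are not reported here and are left out of those lists' counts. No value column was left out.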

Additional observations from a re-analysis of the deposited data

Results flagged for a closer look

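Of 68 groups of values looked at, 11 held a value far from the rest of its group by Dixon's criterion at 95%, where chance flags about 1 in 20 groups, or 3.4 here. In 9 of the 11 the library was Ant-134 replicate 3. Its levels were the highest of the 5 Ant-134 libraries for Hbb-bs at 216 CPM (next 56.2), Hba-a1 at 145 CPM (next 42.1), Hbb-bt at 26.2 CPM (next 7.85), Alas2 at 6.01 CPM (next 2.65) and the summed adult globins at 397 CPM (next 113). Hba-a2 alone, at 10.6 CPM beside 7.2 CPM, was not far enough to be flagged. The share of Hba-a2 in the alpha-globin counts was the lowest in the same library, at 6.83% (next 14.2%). Among the genes most like the globins, Sptssb at 2.85 CPM (next 1.33), Rab37 at 5.3 CPM (next 1.36) and Tnnt1 at 2.81 CPM (next 1.14) were highest there. These genes were chosen for their likeness to the globins, so their flags are not independent of the others.

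The remaining flags were Rab37 in Scr replicate 1, the lowest of its group at 0.47 CPM (next 1.35), and the choroid plexus list in Ant-134 replicate 1, the highest of its group at 2.69e+03 CPM (next 705).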

How the results depend on the processing

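Of 207 alternative values for 14 results, 191 kept their direction and their side of the threshold, or a count within 1.5 times. Leaving out 1 library at a time moved the log2 fold changes between 0.245 and 1.29 for Hbb-bs, 0.233 and 1.23 for Hba-a1, 0.227 and 1.2 for Hbb-bt, 0.296 and 0.738 for Hba-a2 and 0.134 and 0.774 for Alas2, the lowest each time without Ant-134 replicate 3. The summed globin difference ran from 0.27 to 0.909, the Hbb-bt share difference from -1.04 to -0.027, that of Alas2 per 1000 from -8.03 to -0.927, and the count of genes called over all genes from 629 to 973. The log2 alpha to beta difference ran from -0.0588 to 0.0389 and turned sign without Ant-134 replicate 3 (0.0189), Ant-134 replicate 4 (0.00338) or Scr replicate 3 (0.0389), with no exact p below 0.05. The Hba-a2 share difference ran from -1.49 to 0.798 points and turned sign without Ant-134 replicate 3. Calls within the gene lists, leaving aside the members and the hippocampus list, were 13 and ran from 4, without Scr replicate 2, to 14. Of the 10 genes most like the globins, 0 to 8 remained, and 4 as deviations from the group means.

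Without robust estimation, Hbb-bs passed the unadjusted threshold (1.10, unadjusted p of 0.0485 by edgeR), beside 0.0485 to 0.185 over the alternatives that kept all libraries and 0.102 to 0.379 with 1 library left out. The same-numbered libraries of the groups did not deviate together (r from -0.115 to 0.012 in 4 pairs), so the replicate numbers do not pair mice. With the replicate block, 808 genes were called in place of 827, and Hba-a2 (log2 fold change 0.657, unadjusted p of 0.00359 by edgeR) and Alas2 (0.595, unadjusted p of 0.0354) passed. With no filter on low counts 1775 genes passed, and 1467 by limma on log2(FPKM + 1) with no filter, where more genes were tested. DESeq2 gave Hbb-bs no p (log2 fold change 1.12, SE 0.623). The members had 46 counts or more a library, and 9 red cell genes 0 to 6.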
